A study of Sus scrofa with 8 samples.

Results

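The RAB proteins are the largest branch of the RAS superfamily of small GTPases. They were followed here at the transcript level in the hearts of miniature pigs given doxorubicin, an anthracycline cancer drug known to damage heart muscle. The family was taken as every gene in the deposited count table whose symbol is RAB followed by a number, with an optional letter and digit. That gave 59 genes of 31014, all protein-coding, and 48 of them had enough reads to be tested. Heart tissue came from wild-type (WT) Sus scrofa, with 5 samples from animals given doxorubicin (doxorubicin 1 to 5) and 3 from animals given vehicle (vehicle 1 to 3). Dose, schedule, age and sex were not given in the sources used here. Whether each sample is a different animal is not stated either, so a p-value reflects the spread among these 8 samples, which may be technical.

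A RAB protein switches between a GTP-bound form on a membrane and a GDP-bound form that is drawn off into the cytosol. Each marks particular membranes, and in its GTP form it recruits effectors (tethers, motors and adaptors) that move, dock or fuse vesicles. Guanine nucleotide exchange factors (GEFs) load GTP, GTPase-activating proteins (GAPs) end the signal, and escort proteins and GDP dissociation inhibitors deliver and remove the lipid-anchored protein. In muscle cells this traffic carries glucose transporters, receptors and ion channels to and from the surface, and it leads cargo and damaged organelles to lysosomes.

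Library totals ran from 17442566 to 18267178 counts in the doxorubicin libraries and from 16105242 to 17195538 in the vehicle libraries. Genes of mitochondrial DNA took 8.70% to 16.6% of counts after doxorubicin and 23.6% to 27.5% in vehicle. Values below are CPM, each library's counts divided by its total and set to a common size, scaled by TMM, a method that lines up the bulk of the genes between libraries. The fit was edgeR's quasi-likelihood test, with an adjusted p (Benjamini-Hochberg over all 14938 genes tested) under 0.05 as the threshold, and SE is the standard error of the log2 fold change. The library least like its group was doxorubicin 5, whose correlation with the other treated libraries averaged 0.912. That average was 0.941 to 0.956 in doxorubicin 1 to 4, and 0.974 to 0.977 among the vehicle libraries.

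Markers of several cell types moved with treatment. Summed markers of macrophages and monocytes were at 245 to 718 CPM after doxorubicin and 143 to 191 CPM in vehicle, and 6 of their 9 genes rose. Fibroblast markers summed to 2486 to 31469 CPM after doxorubicin and 1245 to 1455 CPM in vehicle, where 5 of 9 rose and 1 fell. Lymphocyte markers summed to 15.4 to 33.2 CPM against 6.07 to 9.46 CPM in vehicle (5 of 6 tested rose), and proliferation markers to 19.1 to 41.3 CPM against 9.002 to 13.9 CPM in vehicle (3 of 6 rose). Smooth muscle and pericyte markers (3 of 8 rose, 1 fell) lay at 733 to 4482 CPM after doxorubicin and 654 to 1270 CPM in vehicle. Cardiomyocyte markers summed to 34866 to 60932 CPM against 58601 to 65630 CPM in vehicle (0 of 8 rose, 2 fell), and adipocyte markers to 748 to 1228 CPM against 1528 to 1568 CPM in vehicle (0 of 4 rose, 2 fell). Endothelial sums overlapped (564 to 1580 CPM after doxorubicin, 1208 to 1549 CPM in vehicle; 1 of 8 rose), as did those of Schwann cells and neurons (33.6 to 50.3 and 35.9 to 50.8 CPM; 1 of 5 rose). Neutrophil and mast cell markers lay at 8.95 to 27.3 CPM after doxorubicin and 17.6 to 20.04 CPM in vehicle (0 of 4 tested passed, and 1 of the 8 listed was at 0 in all libraries). In whole tissue, a change in the number of cells of a type and a change in RNA per cell cannot be told apart, and the part of cell composition in the RAB values below was not tested.

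RAB transcripts moved both ways after doxorubicin. There were 10 rises and 8 falls among the 48 tested, and 30 members missed the threshold. That is 20.8% rising, where 13.6% of all genes tested rose, and 16.7% falling, where 11.3% of all genes tested fell. Counts by role below, over 2 to 12 tested genes each, are to be read against the same 13.6% and 11.3%. Their median log2 fold change was 0.03, against 0.02 for all genes. The rises ran from 1.49-fold (RAB11B and RAB40C) to 34.9-fold (RAB3B), and the falls from a fold of 0.717 (RAB6A) to 0.488 (RAB30). Groups did not overlap for 26 of the 48 genes (54.2%), 12 higher and 14 lower after doxorubicin, where 34.9% of all genes tested did not overlap. The falls depended on the scaling. With library size in place of TMM, 16 members passed as higher and 0 as lower by edgeR, with 2 lower at an unadjusted p under 0.05. All genes then split 4093 higher and 499 lower, in place of 2033 and 1681, and their median log2 fold change moved by 0.357 to 0.378. The 8 members that fell lay between −0.68 and −0.12 on that scale, all under that median.

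**Figure D1:**
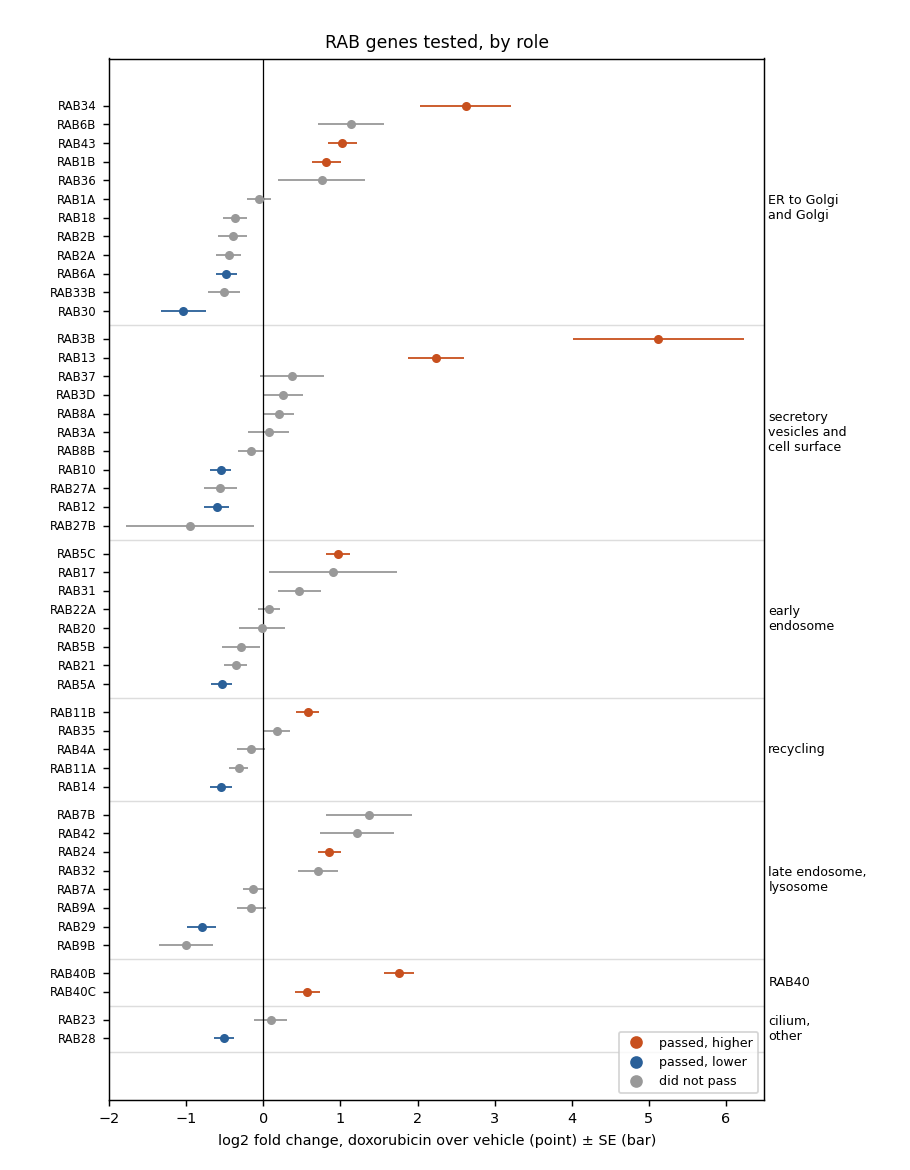
Log2 fold change of doxorubicin over vehicle (horizontal axis, point) with its SE (bar) for the 48 tested RAB genes, in blocks by role. The 10 genes that rose are orange, the 8 that fell are blue and the 30 that did not pass are grey. Each block from ER to lysosome holds at least 1 gene of each colour.

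The RAB40 proteins differ from other RABs in carrying a SOCS box, through which they assemble a CUL5 ubiquitin ligase. Both members in the table rose. RAB40B (gene ID 100522636; Sscrofa11.1 chromosome 12, 492298 to 516965) had 9.17, 11.0, 9.39, 11.98 and 10.1 CPM in doxorubicin 1 to 5, against 3.07, 2.98 and 3.06 CPM in vehicle 1 to 3. Every doxorubicin library lay above every vehicle library. The vehicle libraries were nearly equal, though on only 43 reads in each, and the treated ones had 168, 218, 201, 231 and 202 reads. That was a 3.40-fold rise (log2 fold change 1.76, SE 0.19, adjusted p = 0.00437), and RAB40B had the smallest p in the family. RAB40C (chromosome 3, 41140557 to 41160101) had 21.3, 19.3, 22.0, 20.1 and 23.0 CPM after doxorubicin and 11.9, 17.0 and 13.8 CPM in vehicle. The groups did not overlap, though the lowest doxorubicin library and the highest vehicle library were close. Its rise was 1.49-fold (SE of log2 0.16, adjusted p = 0.0305). CUL5, the cullin that RAB40 proteins bind, fell to 57.4 ± 5.68 CPM in doxorubicin hearts, against 114 ± 15.1 CPM in vehicle (SD, n = 5 and n = 3; log2 fold change −0.99, SE 0.15, adjusted p = 0.00584). Of the 6 symbols listed for that ligase 4 were tested, 0 rose, 1 fell and 3 did not pass. The call of RAB40B held in all 19 alternative fits, while that of RAB40C was lost in 6, among them the fit without the trend of each library with gene density (adjusted p = 0.665).

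Early endosome RABs split within the RAB5 trio, whose members all drive the fusion of incoming vesicles. RAB5C (chromosome 12, 20613991 to 20635952) had 53.0, 57.3, 57.0, 54.2 and 57.6 CPM after doxorubicin, against 24.4, 26.8 and 34.4 CPM in vehicle. All 5 treated libraries were tightly grouped well above the vehicle libraries. Its rise was 1.96-fold (log2 fold change 0.97, SE 0.15, adjusted p = 0.00598). RAB5A (chromosome 13, 6905302 to 6940165) lay the other way, at 43.0, 39.6, 46.4, 41.9 and 48.8 CPM after doxorubicin and 69.7, 58.7 and 63.6 CPM in vehicle, again without overlap. It fell by 0.54 on the log2 scale (SE 0.13, adjusted p = 0.0188). RAB5B did not pass, with 90.1, 94.7, 81.6, 122 and 49.6 CPM in doxorubicin 1 to 5 and 114, 103 and 105 CPM in vehicle (log2 fold change −0.29, SE 0.24, adjusted p = 0.397). Doxorubicin 5 was the lowest of its libraries. Of the other tested early endosome members none passed. RAB21, which serves integrin traffic, lay at 71.6 to 96.2 CPM after doxorubicin and 102 to 104 CPM in vehicle (adjusted p = 0.0953), and RAB31 at 45.5 to 103 CPM and 48.8 to 55.1 CPM in vehicle (adjusted p = 0.232). RAB22A, RAB20 and RAB17 had log2 fold changes of 0.07, −0.01 and 0.90. That of RAB17 stood on 4 to 16 reads in a doxorubicin library and 0 to 10 in a vehicle library (SE 0.83).

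Because RAB5C and RAB5A were read in the same library, their ratio needs no scaling between libraries. A ratio does not remove the trend of each library with gene density, though. RAB5C has 40 protein-coding genes within 500 kb and RAB5A has 6. Without that trend their log2 fold changes were 0.63 and −0.31, in place of 0.97 and −0.54. RAB11B (29) and RAB11A (10), below, differ in density too. The count of RAB5C over that of RAB5A was 1.23, 1.45, 1.23, 1.29 and 1.18 in doxorubicin 1 to 5, against 0.349, 0.456 and 0.541 in vehicle. RAB5A had more reads than RAB5C in every vehicle library and fewer in every doxorubicin library. RAB5C over RAB5B was 0.588, 0.605, 0.698, 0.445 and 1.16 after doxorubicin and 0.213, 0.261 and 0.328 in vehicle, also without overlap. These ratios are given as a description, with no test. Over all 15 pairs of tested members that share a number, the groups did not overlap in 7. How often other pairs of genes are without overlap was not counted.

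**Figure D2:**
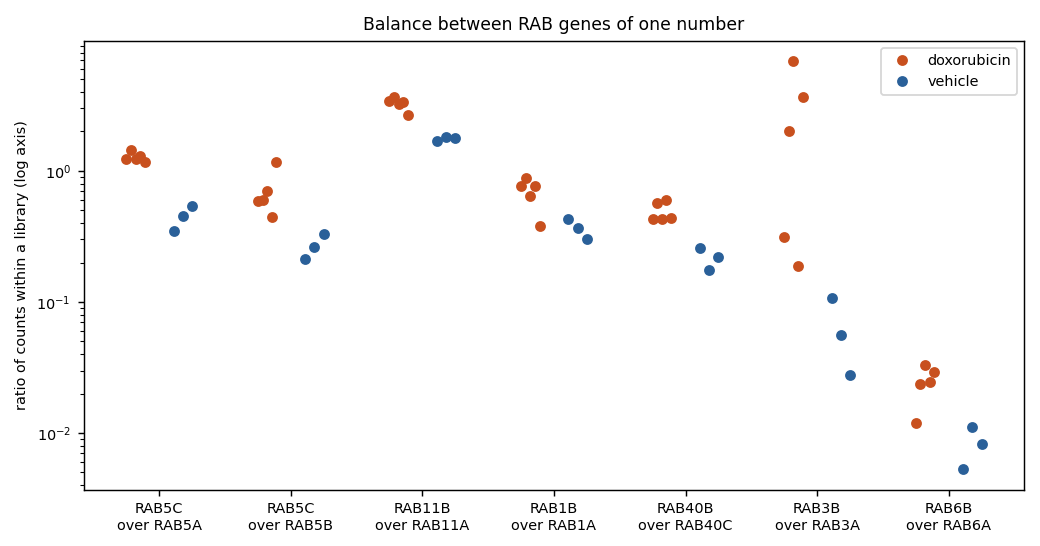
Ratio of counts within each library (vertical log axis) for 7 of the 15 pairs of tested RAB genes that share a number. Doxorubicin (orange, 5 libraries) is left of vehicle (blue, 3 libraries). The pairs shown are without overlap except RAB1B over RAB1A, while over all 15 pairs 7 do not overlap. RAB5C over RAB5A lies at 1.18 to 1.45 after doxorubicin and 0.349 to 0.541 in vehicle, while RAB1B over RAB1A overlaps.

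Recycling endosome members had 1 rise and 1 fall among 5 tested, where 13.6% of all genes tested rose and 11.3% fell. RAB11B, which with RAB11A returns receptors and transporters to the surface, had 122, 142, 110, 137 and 109 CPM after doxorubicin, against 79.2, 88.4 and 82.4 CPM in vehicle (chromosome 2, 70884457 to 70896169). All treated libraries lay higher. Its rise was 1.49-fold (SE of log2 0.15, adjusted p = 0.0265). RAB11A had 35.8, 39.0, 33.9, 40.7 and 40.5 CPM after doxorubicin and 47.0, 49.0 and 46.1 CPM in vehicle, without overlap, but did not pass (log2 fold change −0.32, SE 0.13, adjusted p = 0.0866). The ratio of RAB11B to RAB11A counts averaged 3.27 ± 0.363 after doxorubicin and 1.76 ± 0.0646 in vehicle (SD, n = 5 and n = 3). RAB14, active between endosomes and the Golgi and in glucose transporter traffic (chromosome 1, 261228112 to 261256913), fell. It had 82.6, 75.9, 92.3, 93.3 and 99.2 CPM after doxorubicin and 131, 118 and 141 CPM in vehicle (log2 fold change −0.55, SE 0.15, adjusted p = 0.0252), with no overlap. RAB4A (adjusted p = 0.526) and RAB35 (adjusted p = 0.469), which serve fast recycling, did not pass. RAB11B did not pass without the density trend (adjusted p = 0.141), without a filter on low counts (0.0545), or without vehicle 1, 2 or 3 or doxorubicin 2. RAB5A and RAB14 did not pass without that trend (0.115 and 0.0700), without vehicle 1 or vehicle 3, or with library size only, and RAB14 not without doxorubicin 2.

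At the ER and Golgi, 3 of 12 tested members rose, 2 fell and 7 did not pass, beside the 13.6% and 11.3% of all genes tested. RAB1B, which with RAB1A carries vesicles from ER to Golgi (chromosome 2, 6110438 to 6116443), had 52.5, 58.2, 48.1, 54.5 and 35.7 CPM after doxorubicin, against 31.1, 30.2 and 23.5 CPM in vehicle. Doxorubicin 5 was nearest to the vehicle libraries, and the groups did not overlap. The rise was 1.76-fold (SE of log2 0.19, adjusted p = 0.0166). RAB1A had 68.6, 65.8, 74.3, 70.7 and 93.4 CPM after doxorubicin and 72.4, 82.8 and 77.8 CPM in vehicle, which overlapped (log2 fold change −0.06, SE 0.15, adjusted p = 0.802). The ratio of RAB1B to RAB1A counts was 0.382 to 0.884 after doxorubicin and 0.303 to 0.430 in vehicle, with doxorubicin 5 inside the vehicle range. RAB43, a Golgi RAB (chromosome 13, 71564250 to 71596318), had 18.7, 15.6, 17.4, 19.1 and 23.0 CPM after doxorubicin, against 8.001, 8.88 and 10.7 CPM in vehicle. All treated values were higher, by 2.04-fold (SE of log2 0.18, adjusted p = 0.00829). RAB34, a Golgi RAB also needed to form primary cilia (chromosome 12, 44951989 to 44956458), had 8.89, 10.1, 17.5, 4.82 and 31.6 CPM after doxorubicin, against 2.50, 2.01 and 2.56 CPM in vehicle. The treated libraries were widely spread and all higher. The rise was 6.17-fold (log2 fold change 2.62, SE 0.59, adjusted p = 0.0151), with a log2 fold change of 1.84 by limma voom. RAB34 did not pass without any of the vehicle libraries taken in turn (adjusted p up to 0.0684).

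The falls at the Golgi were RAB6A and RAB30. RAB6A, which runs retrograde and secretory carriers (chromosome 9, 8137901 to 8199212), had 100, 109, 115, 104 and 95.4 CPM after doxorubicin and 162, 137 and 139 CPM in vehicle. The groups did not overlap (log2 fold change −0.48, SE 0.14, adjusted p = 0.0345). RAB30 (chromosome 9, 17124181 to 17222741) had 11.1, 4.75, 7.80, 6.54 and 4.55 CPM after doxorubicin and 17.3, 12.5 and 12.9 CPM in vehicle (log2 fold change −1.04, SE 0.30, adjusted p = 0.0328). Doxorubicin 1 came nearest to the vehicle values, and still lay under them. RAB2A, second to RAB12 in vehicle CPM, had 165, 160, 148, 161 and 208 CPM after doxorubicin, against 227, 231 and 233 CPM in vehicle. It did not overlap either, but missed the threshold (log2 fold change −0.45, SE 0.16, adjusted p = 0.0631). RAB18, RAB2B and RAB33B had log2 fold changes of −0.37, −0.40 and −0.51, and RAB6B and RAB36, both under 5 CPM in every library, had 1.14 and 0.76, none past the threshold. RAB1B did not pass without the density trend (adjusted p = 0.249), the length trend (0.0571), vehicle 1 or vehicle 3. RAB6A and RAB30 lost their call in 10 and 9 of the 19 alternatives, library size only and each vehicle library left out among them.

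RABs of secretory vesicles and surface delivery had 2 rises and 2 falls among 11 tested, beside the 13.6% and 11.3% of all genes tested. RAB3B, a RAB of regulated secretion (chromosome 6, 160194488 to 160255635), had 8.08, 51.5, 90.3, 4.82 and 51.9 CPM after doxorubicin, against 1.79, 1.11 and 0.640 CPM in vehicle. Those vehicle values stood on 25, 16 and 9 reads, and the treated ones on 148, 1019, 1934, 93 and 1038. Doxorubicin 2, 3 and 5 lay far above doxorubicin 1 and 4, which were still above vehicle. The fitted rise was 34.9-fold (log2 fold change 5.13, SE 1.11, adjusted p = 0.0143). Its relatives RAB3A (13.1 to 25.6 CPM after doxorubicin, 16.6 to 22.9 CPM in vehicle) and RAB3D (10.4 to 19.8 and 10.4 to 14.1 CPM) overlapped between the groups (adjusted p = 0.865 and 0.485). RAB3A had more reads than RAB3B in all vehicle libraries and in doxorubicin 1 and 4, and fewer in doxorubicin 2, 3 and 5. The RAB3B gene model is longer (4819 bases, against 1488 for RAB3A), so reads do not rank the 2 genes. In mean CPM per kb RAB3A was above RAB3B after doxorubicin (13.9 against 8.57). The order differed between libraries. Per length, RAB3B was the higher in doxorubicin 3 and 5, and RAB3A in doxorubicin 1, 2 and 4. RAB3C, with too few reads to test, had 7, 8, 9, 6 and 5 reads after doxorubicin and 1, 0 and 1 in vehicle.

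RAB13, which serves junction proteins and surface delivery (chromosome 4, 95705093 to 95709942), had 17.7, 15.2, 22.3, 14.3 and 39.7 CPM after doxorubicin, against 4.29, 5.13 and 4.41 CPM in vehicle. Doxorubicin 5 was the highest, and the lowest treated library was still far above vehicle. It rose 4.73-fold (log2 fold change 2.24, SE 0.36, adjusted p = 0.00683). Of its close relatives, RAB8A (adjusted p = 0.487) and RAB8B (adjusted p = 0.518) did not pass, and RAB10 fell. RAB10, which moves the GLUT4 glucose transporter in fat cells (chromosome 3, 112842190 to 112924188), had 130, 158, 150, 153 and 149 CPM after doxorubicin, against 224, 216 and 212 CPM in vehicle, a clear separation (log2 fold change −0.56, SE 0.14, adjusted p = 0.0216). RAB12, which steers transferrin receptor to lysosomes (chromosome 6, 99216225 to 99244627), had 170, 162, 129, 179 and 163 CPM after doxorubicin and 229, 256 and 250 CPM in vehicle. All treated libraries lay lower (log2 fold change −0.61, SE 0.16, adjusted p = 0.0243). RAB27A, used by secretory lysosomes, had 4.25 to 6.57 CPM after doxorubicin and 7.43 to 8.96 CPM in vehicle without passing (adjusted p = 0.0796), and RAB27B and RAB37 overlapped between groups. RAB3B did not pass without vehicle 1, without vehicle 3 (adjusted p = 0.0633) or without a filter (0.0512). RAB10 and RAB12 did not pass with library size only or without any of the vehicle libraries taken in turn, RAB10 not without a filter (0.0526) and RAB12 not without doxorubicin 2 or the density trend (0.139).

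**Figure D3:**
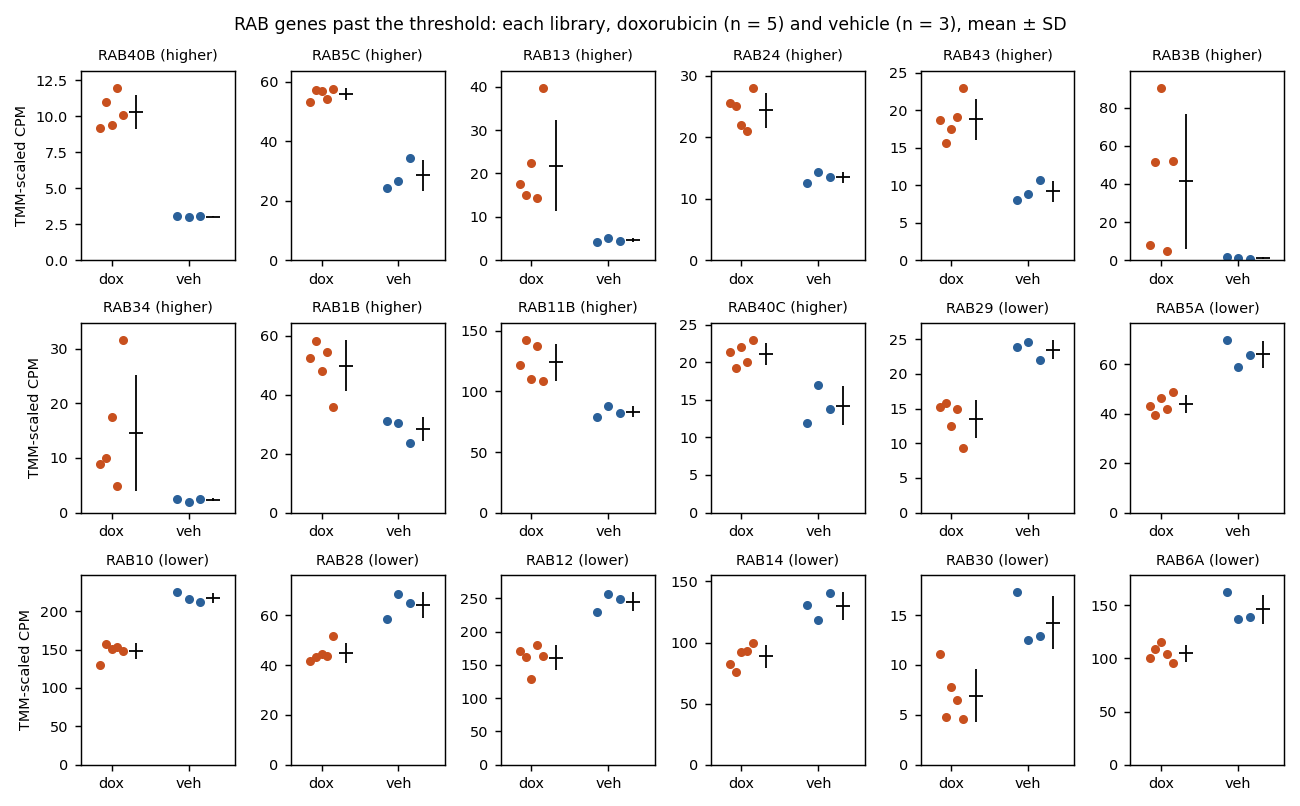
TMM-scaled CPM (vertical axes, each from 0) in each library for the 18 RAB genes past the threshold, doxorubicin (dox, orange, n = 5) left of vehicle (veh, blue, n = 3), with mean ± SD in black. RAB40B lies at 9.17 to 11.98 CPM against 2.98 to 3.07 CPM in vehicle, while RAB3B spreads from 4.82 to 90.3 CPM among the doxorubicin libraries.

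Late endosome and lysosome RABs had 1 rise and 1 fall among 8 tested, where 13.6% of all genes tested rose and 11.3% fell. RAB24, linked to the clearance of autophagosomes (chromosome 2, 80646426 to 80651498), had 25.6, 25.1, 22.1, 21.1 and 28.1 CPM after doxorubicin, against 12.6, 14.4 and 13.5 CPM in vehicle. Every treated library was above every vehicle library, by 1.81-fold (SE of log2 0.15, adjusted p = 0.00826). RAB29, known for recruiting the kinase LRRK2 to membranes (chromosome 9, 66448854 to 66458766), had 15.2, 15.8, 12.4, 14.9 and 9.25 CPM after doxorubicin and 23.9, 24.6 and 22.0 CPM in vehicle. All treated libraries were lower (log2 fold change −0.80, SE 0.19, adjusted p = 0.0175). RAB7A, the general RAB of late endosomes and lysosomes, did not pass, at 130, 143, 135, 139 and 125 CPM after doxorubicin and 151, 145 and 147 CPM in vehicle (log2 fold change −0.14, SE 0.13, adjusted p = 0.471). RAB9B, a RAB of transport from late endosome to Golgi, had 15.2, 46.5, 24.7, 35.3 and 16.9 CPM after doxorubicin and 70.9, 47.1 and 48.9 CPM in vehicle, with doxorubicin 2 just under the vehicle range (adjusted p = 0.0607). RAB32, which serves lysosome-related organelles, had 9.25 to 17.2 CPM after doxorubicin and 5.36 to 8.75 CPM in vehicle (adjusted p = 0.0705), and RAB7B, RAB42 and RAB9A did not pass either. RAB28, tied to cilia and photoreceptors (chromosome 8, 8870795 to 9125253), had 41.4, 43.1, 44.5, 43.7 and 51.8 CPM after doxorubicin and 58.4, 68.6 and 65.0 CPM in vehicle. It fell without overlap (log2 fold change −0.51, SE 0.13, adjusted p = 0.0232), and RAB23, a RAB of the hedgehog pathway, overlapped between groups (adjusted p = 0.765). RAB28 did not pass with library size only, without the density trend (0.322), or without doxorubicin 2 or any of the vehicle libraries taken in turn. RAB29 was lost with library size only (0.0928) and without any of the vehicle libraries.

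Of the 59 members, 11 were not tested. RAB25, known from epithelia, and RAB4B had 0 reads in all 8 libraries. For RAB25 that allows up to 3 reads in sum for each group. RAB4B overlaps EGLN2 on the same strand, and EGLN2 also had 0 reads throughout. Whether the counting left out reads shared by overlapping genes is not stated, so no such limit is given for RAB4B and its 0 may not mean absence. RAB38, a partner of RAB32 in lysosome-related organelles, had 3, 4, 4, 0 and 11 reads after doxorubicin and 0 in each vehicle library. RAB33A, RAB39A, RAB39B, RAB19, RAB44, RAB26 and RAB15 had 0 to 14 reads in a library, and RAB3C is given above.

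Levels compare between genes only per length of the gene model. In CPM per kb, RAB12 (87.1 after doxorubicin, 133 in vehicle), RAB1A (121 and 126) and RAB2A (76.2 and 104) were the highest in vehicle. After doxorubicin RAB1A came first, then RAB12 and RAB1B (82.2, against 46.7 in vehicle). The models of RAB1A, RAB1B, RAB11A and RAB32 are 618, 606, 651 and 681 bases long, each a multiple of 3 as a coding sequence would be, and the models of the other members are longer, so their levels per length are not on quite the same footing. RAB40B stood at 2.72 CPM per kb after doxorubicin and 0.798 in vehicle, a low level within the family. RAB3B stood at 8.57 CPM per kb after doxorubicin and 0.245 in vehicle. By reads, the 7 members with the largest shares in vehicle (RAB12, RAB2A, RAB10, RAB18, RAB7A, RAB6A and RAB14) held 43.7% of RAB CPM after doxorubicin and 53.2% in vehicle, and choosing them by their vehicle level favours a lower share after doxorubicin. RAB11B held 5.77% after doxorubicin and 3.43% in vehicle. By reads it lay above RAB6A (4.87%) and RAB14 (4.12%) only after doxorubicin. In CPM per kb RAB11B was above both in vehicle already (42.6, against 37.7 for RAB6A and 34.8 for RAB14).

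**Figure D4:**
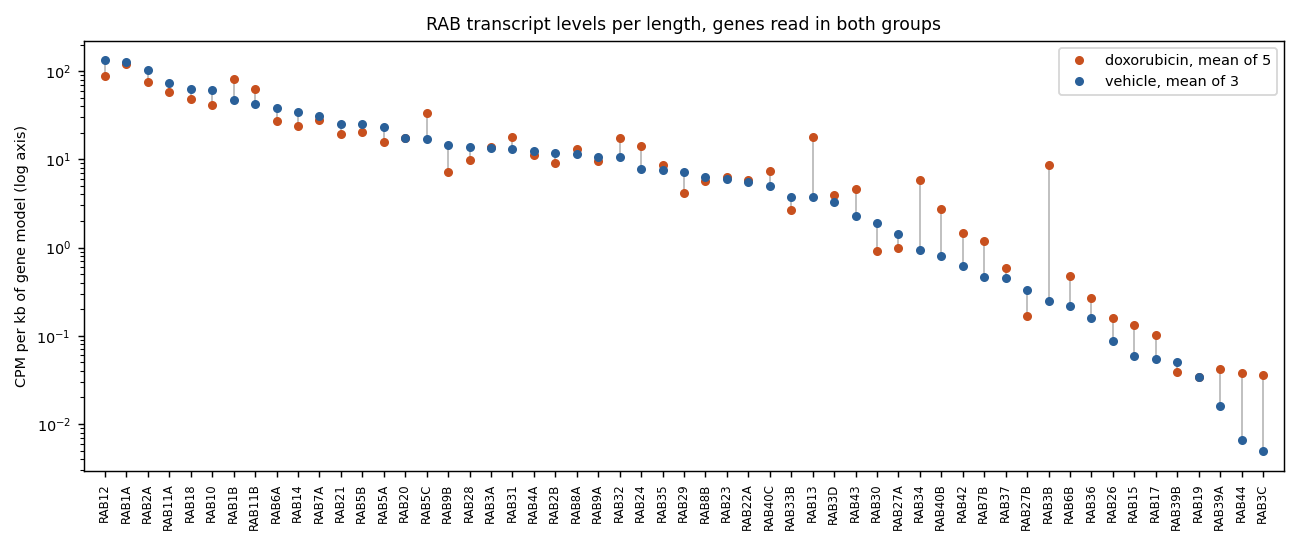
Mean level per length (vertical log axis, TMM-scaled CPM per kb of gene model) of the RAB genes read in both groups, ordered by the vehicle level, doxorubicin in orange and vehicle in blue. RAB12 is first in vehicle at 133 and RAB1A first after doxorubicin at 121, and RAB3B has the longest span among the tested genes.

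The family's summed level depended on what it was set against. As CPM of the whole library, without TMM, the 59 genes summed to 2113, 2340, 2532, 2270 and 2536 in doxorubicin 1 to 5 and to 2089, 2029 and 2120 in vehicle 1 to 3. Doxorubicin 1 lay inside the vehicle range and the other treated libraries above it. With the genes of mitochondrial DNA left out of the total, the sums were 2701 ± 143 after doxorubicin and 2783 ± 91.8 in vehicle (SD, n = 5 and n = 3), which overlapped. On the TMM scale they were 2149 ± 105 after doxorubicin and 2427 ± 6.90 in vehicle, with all treated libraries lower.

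The number of neighbouring genes differed between members that rose and members that fell, as it did among all genes. With protein-coding genes counted within 500 kb on either side of a gene's midpoint, itself included, the 10 that rose had a median of 33.5 (12 to 55) and the 8 that fell a median of 9 (3 to 17). Among all genes tested, those that rose had a median of 23 and those that fell a median of 9. When the trend of each library with that density was removed, 8 members passed as higher and 4 as lower. The rises of RAB40B, RAB5C, RAB13, RAB24, RAB43, RAB34 and RAB3B and the falls of RAB29, RAB10 and RAB6A passed in that fit, as did RAB32 (higher) and RAB2B (lower), which had missed the threshold before.

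**Figure D5:**
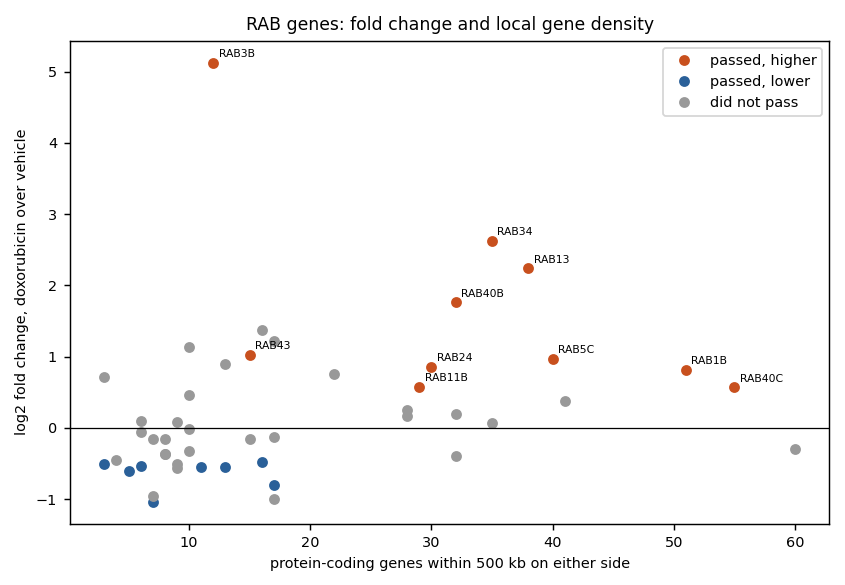
Log2 fold change of doxorubicin over vehicle (vertical axis) against the number of protein-coding genes within 500 kb on either side (horizontal axis) for the 48 tested RAB genes, coloured by call. The genes that rose, named in the plot, have 12 to 55 neighbours and those that fell 3 to 17.

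The doxorubicin libraries also differed among themselves. RAB34 and RAB31 had their highest values in doxorubicin 5, then 3, 2, 1 and 4, which is the order of the summed fibroblast markers, at 31469, 7305, 4674, 2856 and 2486 CPM. No other tested member had that order. RAB13, RAB18 and RAB23 ran 5, 3, 1, 2 and 4, the order of the summed smooth muscle and pericyte markers, at 4482, 2306, 1258, 1085 and 733 CPM. The order of the macrophage sum was that of RAB28, the order of the proliferation sum that of RAB14, and the order of the cardiomyocyte sum that of RAB5B. Sums of the other 5 marker lists had the order of 0 tested members. These orders are a description, and no relation was tested over 5 libraries. How many genes outside the family share each order was not counted, so a shared order does not tie a member to a cell type.

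The proteins that run the RAB cycle were described from lists of RAB regulators and effectors. Of 134 tested genes, 18 rose, 15 fell and 101 did not pass, with a median log2 fold change of 0.00. Both shares were close to the 13.6% that rose and the 11.3% that fell among all genes tested, against which the counts of the lists below are also to be read. With library size only 40 passed as higher and 6 as lower. Among 11 genes of the membrane cycle 1 rose and 1 fell. CHML, an escort protein for prenylation, fell to 6.46 ± 1.07 CPM, against 10.6 ± 1.90 CPM in vehicle (SD, n = 5 and n = 3; adjusted p = 0.0370). The subunits of the prenylating enzyme, RABGGTA and RABGGTB, did not pass (adjusted p = 0.384 and 0.824; named after their values were seen).

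Among 37 tested genes listed as GEFs or as parts of complexes with them, 6 rose and 2 fell (median log2 fold change −0.12). Of all genes tested 13.6% rose and 11.3% fell. The smallest p belonged to WDR41, part of the complex with C9orf72 and SMCR8, which fell (24.7 ± 2.32 CPM after doxorubicin, 42.7 ± 5.44 CPM in vehicle, adjusted p = 0.00852). HPS1, of the complex that activates RAB32 and RAB38, rose 2.34-fold (SE of log2 0.23, adjusted p = 0.00945). RIN1, a RAB5 activator, was at 2.58 ± 1.43 CPM after doxorubicin and 0.237 ± 0.231 CPM in vehicle (adjusted p = 0.0139), and DENND2A rose 1.61-fold (SE of log2 0.16, adjusted p = 0.0160). Of 40 GAPs 3 rose and 3 fell (median 0.06). TBC1D10B rose 2.08-fold (SE of log2 0.15, adjusted p = 0.00525), and TBC1D10C, a relative known from lymphocytes, rose 4.73-fold (SE of log2 0.52, adjusted p = 0.0162). The level of TBC1D10C was low, at 0.498 to 0.693 CPM in vehicle and 0.928 to 4.30 CPM after doxorubicin, lowest in doxorubicin 1. TBC1D23 fell by 0.73 on the log2 scale (SE 0.16, adjusted p = 0.0144) and RAB3GAP1, which acts on RAB3, fell by 0.66 (SE 0.18, adjusted p = 0.0276). TBC1D4 and TBC1D1, the insulin- and exercise-regulated GAPs of RAB10, had adjusted p of 0.743 and 0.113 (named after their values were seen).

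Effectors had 8 rises and 8 falls among 42 tested (median −0.10), beside the 13.6% and 11.3% of all genes tested. RABEP2, which binds RAB5 and RAB4, rose 2.28-fold (SE of log2 0.20, adjusted p = 0.00756), and MICALL2, a RAB13 effector at junctions, rose 4.65-fold (SE of log2 0.39, adjusted p = 0.00793). RAB11FIP3, which links RAB11 to motors, rose 1.72-fold (SE of log2 0.14, adjusted p = 0.00829). APPL1, an adaptor on RAB5 endosomes, fell to 17.5 ± 5.50 CPM in doxorubicin hearts, against 46.3 ± 4.16 CPM in vehicle (log2 fold change −1.41, SE 0.25, adjusted p = 0.00812). Its relative APPL2 fell too (log2 fold change −0.69, SE 0.14, adjusted p = 0.0120; named after its value was seen). Without any of the vehicle libraries taken in turn, the 134 genes had 5 to 10 rises and 4 to 10 falls.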

How the data were processed

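Heart RNA of 8 wild-type miniature pig samples was sequenced from SMARTER mRNA libraries, per the labels' protocols. The authors deposited 1 table of raw counts per gene, in whole numbers. Aligner, counter and strand setting were not given in the sources used here, so reads of overlapping genes cannot be told apart. That touches 17 members, 4 of them called (RAB5A with PP2D1, RAB24 with NSD1, RAB43 with GP9 and RAB30 with PRCP). Gene IDs of 30335 genes matched RefSeq's Sscrofa11.1 table, with the same start and end. No library was a copy of another: pairs in a group differed by 17.2 to 284 times sampling noise (chi-square over degrees of freedom).

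Counts were fitted in R 4.3.3 with edgeR 4.0.16 (filterByExpr with minimum count 10 and minimum total 15, TMM, robust quasi-likelihood, treatment as the only term, two-sided), tested on simulated data first. SE is the size of the log2 fold change over the root of F. Alternatives were RLE factors, library size only, TMM without mitochondrial genes, no filter, a filter of CPM over 1 in 3 or more libraries, DESeq2 1.42.0, voom with quality weights from limma 3.58.1, the replicate number as a block, and each library left out. Removal of trends with gene density and gene length (lowess, span 0.3), and the block's 6 libraries without it, were added after seeing the data. Every member is accounted for, and those past the threshold and RAB40B are given in full. Of each regulator list up to 4 called genes with the smallest p are named. A result that the rule would name is not reported here. Members and lists were chosen with earlier results of these data known. Figures were drawn with matplotlib 3.10.9.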

Additional observations from a re-analysis of the deposited data

Results flagged for a closer look

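Among the 5 doxorubicin libraries, the highest or lowest value of 5 of the 48 tested members lay far from the others (gap over range above 0.710, Dixon's limit for 5 samples). Chance flags about 1 in 20 groups. In 4 of the 5 the library was doxorubicin 5. RAB2A was at 208 CPM in doxorubicin 5, against 148 to 165 CPM in the other 4, only just past the limit (gap over range 0.7106). RAB18 was at 168 CPM there, against 121 to 132 CPM. RAB8B was at 36.2 CPM there, against 24.6 to 27.3 CPM. RAB17, read at a few counts per library, was at 0.200 CPM there, against 0.674 to 0.764 CPM. RAB8A was at 35.5 CPM in doxorubicin 3, against 20.7 to 24.6 CPM in the others. None of these 5 members passed the threshold with all libraries. Without doxorubicin 5, RAB2A and RAB18 passed as lower (edgeR adjusted p = 0.0119 and 0.0198). So did RAB21 and RAB33B, which were not flagged (edgeR adjusted p = 0.0233 and 0.0187). Calls over all genes then went from 3714 to 4737, so the change was not particular to the flagged members.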

How the results depend on the processing

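No alternative reversed the direction of any of the 18 called members, and 5 of them (RAB40B, RAB5C, RAB13, RAB24 and RAB43) passed in all 19. With library size only, 16 members rose and 0 fell, and of the regulators and effectors 40 rose and 6 fell. With limma voom 8087 genes passed, with 17 members lower, 42 regulators and effectors higher and 35 lower. Without the density trend 4 members were lower. With 1 library left out, calls over all genes ran from 649 (vehicle 1) to 4737 (doxorubicin 5), members higher from 5 to 11 and lower from 0 to 12, and regulators and effectors higher from 5 to 24 and lower from 4 to 21. Members lower were 0 without vehicle 1 or vehicle 3 by edgeR (10 and 9 at an unadjusted p under 0.05), 2 without vehicle 2 and 4 without doxorubicin 2. DESeq2, run with all libraries, called 10 lower. The summed level of the family, a ratio of doxorubicin to vehicle of 1.13 ± 0.0868, was 0.971 without mitochondrial genes in the total and 0.886 on the TMM scale. Why these values moved was not tested beyond the settings' own construction. With 3 vehicle libraries, each left-out library removes much of the information on the spread. Same-numbered samples did not deviate together (correlations of −0.02, 0.07 and 0.01 for numbers 1 to 3), and not every sample correlated best with its own number. With the replicate number as a block, on the 6 libraries with shared numbers, 10 members were higher and 6 lower, against 11 and 8 in those libraries without it. RAB10, RAB40C and RAB6A did not pass with the block (adjusted p = 0.0575, 0.0649 and 0.110 by edgeR). Members with few reads, such as RAB17 and RAB3C, are limited by depth.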

Other observations

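Genes related to the RABs but outside the symbol rule also moved both ways. RABL6, a RAB-like GTPase, was at 59.1 ± 5.03 CPM after doxorubicin and 38.2 ± 8.22 CPM in vehicle (SD, n = 5 and n = 3; log2 fold change 0.63, SE 0.17, edgeR adjusted p = 0.0256). RABL3 fell to 17.2 ± 1.505 CPM after doxorubicin, against 24.6 ± 2.20 CPM in vehicle (log2 fold change −0.52, SE 0.14, adjusted p = 0.0263). RAN, the GTPase of nuclear transport, lay at 155 ± 41.3 CPM after doxorubicin and 184 ± 12.4 CPM in vehicle and did not pass (adjusted p = 0.413). The RAB-like intraflagellar transport proteins IFT27 and IFT22, RABL2B and the large GTPase CRACR2A did not pass either, with adjusted p of 0.144 to 0.844. These genes were chosen after the RAB values had been seen.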
